A study of Homo sapiens with 12 samples.

Results

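Withdrawal of GM-CSF was compared with continued GM-CSF in TF-1 cells carrying the K89E mutant of GNB1, in 6 of the 12 arrays of the series. TF-1 is a human erythroleukaemia cell line that needs GM-CSF to grow, and the cells had been stably transduced with the retroviral vector pMSCVpuro holding GNB1 K89E. The arrays were chosen by sample title: 3 came from K89E cells 12 hours after GM-CSF was withdrawn and 3 from K89E cells maintained in GM-CSF. The other 6 arrays came from cells with the empty pMSCV-puro vector under the same conditions, again 3 withdrawn and 3 kept. The labels call the arrays of a group biological triplicates and do not say whether the lines were clones or pools, or whether the triplicates were separate cultures. The p-values measure the spread between these arrays. The series holds no cells with unmutated GNB1 in the vector, and an effect of the mutation cannot be told apart from any other way in which the lines differ.

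GM-CSF acts through a receptor whose common beta chain signals by the kinase JAK2, the transcription factor STAT5 and the RAS-ERK and PI3K pathways, and it keeps myeloid progenitors alive and dividing. GNB1 encodes a beta subunit of heterotrimeric G proteins, which with a gamma subunit carries signals from cell surface receptors to enzymes such as PI3K. K89E is a change of the beta subunit named in the labels. The comparison asks which transcripts respond to loss of the cytokine in cells that carry it.

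Levels are log2 of the intensities the authors deposited, and a change is the mean of the withdrawn arrays minus that of the kept arrays on this scale. The table lists 21996 genes by Ensembl ID without a name, and 0 of these IDs could be matched to a symbol in the reference table used here. Genes are therefore given by ID, the level of GNB1 was not analysed here, and the identity of the cells was not checked against markers. The functions of the genes that responded are not described for the same reason. In bulk RNA, a change per cell and a change in the make-up of the culture cannot be told apart.

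The K89E arrays separated by condition. Over all genes, which do not count as replicates, correlations of log2 levels lay between 0.9975 and 0.9982 within the kept group, between 0.9969 and 0.9976 within the withdrawn group, and between 0.9946 and 0.9968 across the groups. The first principal component of these 6 arrays held 47.0% of their variance. Its scores were 11.6, 15.3 and 7.49 in withdrawn replicates 1 to 3 and -11.1, -9.96 and -13.4 in kept replicates 1 to 3, so the groups did not overlap on it. Withdrawn replicate 3 lay nearest to the kept arrays on it. Its mean log2 level over all genes was also nearest to theirs. It was 7.55, against 7.57 and 7.58 in withdrawn replicates 1 and 2 and 7.55 to 7.56 in the kept arrays. The median SD of a gene was 0.0704 in the withdrawn and 0.0628 in the kept group on the log2 scale.

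In K89E cells 1603 genes rose and 2334 fell after withdrawal at a limma adjusted p under 0.05, which is 7.29% and 10.6% of the genes tested and 17.9% together. Falls were more numerous than rises, and the size of this excess depended on the scaling. The counts were 1972 falls against 1736 rises after quantile normalization and 2530 against 1308 when arrays were centred on their medians. In the values as deposited the large changes were mostly rises. A change of at least 1.5-fold was called for 83 genes that rose and 38 that fell, and a change of at least 2-fold for 9 and 5. Most changes were small. The median called rise was 1.19-fold and the median called fall 1.15-fold, and 36.1% of the called genes changed by at least 1.2-fold. The count at 1.2-fold, 758 higher and 664 lower, turned to 649 and 792 when arrays were centred on their medians, to 612 and 663 without withdrawn replicate 2 and to 631 and 651 without kept replicate 3. The larger number of rises at 1.5-fold was seen under both other scalings, with 85 against 37 after quantile normalization and 75 against 42 after centring, and without each K89E array in turn, with 76 to 103 rises against 38 to 47 falls.

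**Figure D1:**
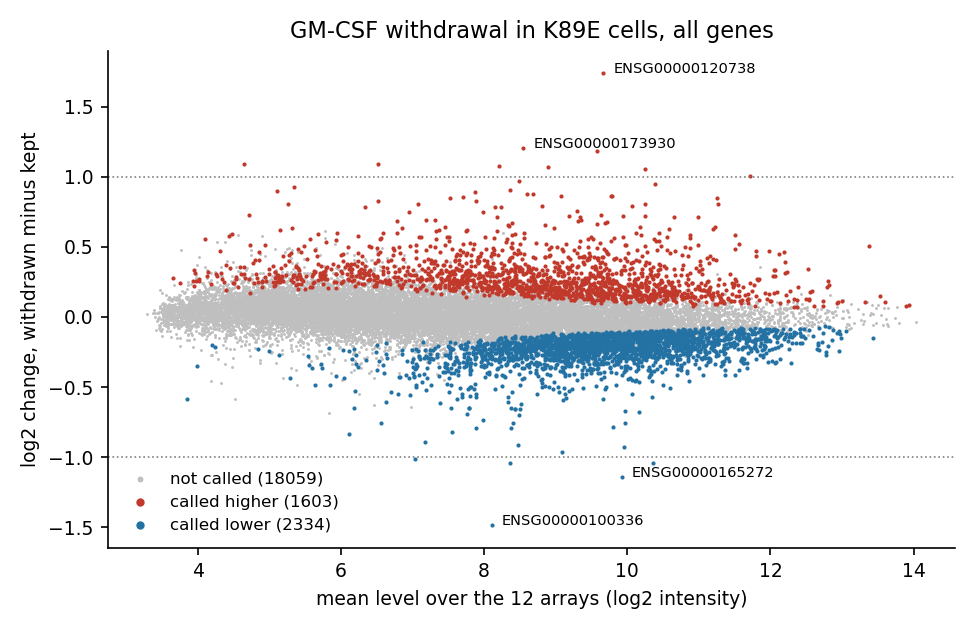
Each point is 1 of 21996 genes, with its mean level over the 12 arrays in log2 intensity on the x axis and its log2 change on withdrawal in K89E cells on the y axis; red and blue points are the 1603 genes called higher and the 2334 called lower, and dotted lines mark 2-fold changes. Points above the upper line outnumber those below the lower one, 9 against 5 among called genes, and the 4 IDs described in the text are labelled.

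The gene with the largest rise was ENSG00000120738. Its log2 level was 8.80, 8.78 and 8.87 in kept replicates 1 to 3 and 10.57, 10.54 and 10.55 in withdrawn replicates 1 to 3. All 3 withdrawn arrays stood far above all kept arrays, though the rule for named genes required that they not overlap. Both groups were tight, with SDs of 0.05 and 0.02. It rose 3.33-fold, by 1.74 on the log2 scale (SE 0.04, limma adjusted p = 5.3e-12), and was the 1 called gene that changed by at least 3-fold. Empty vector cells had a mean of 8.60 ± 0.02 (SD, n = 3) with GM-CSF and of 10.67 ± 0.07 (SD, n = 3) without it. The kept arrays of the lines differed by 0.22, K89E minus empty vector (SE 0.04, limma adjusted p = 0.0026), and the withdrawn arrays by -0.12, which was not called (SE 0.04, limma adjusted p = 0.062).

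ENSG00000173930 had the second largest rise among genes whose arrays did not overlap, and it is given although the rule for naming genes by ID stopped at the first in each direction. Its kept arrays read 7.74, 7.76 and 7.86 and its withdrawn arrays 8.94, 8.90 and 9.14. Withdrawn replicate 3 was the highest. The rise was 2.31-fold, or 1.21 on the log2 scale (SE 0.09, limma adjusted p = 1.7e-06). Empty vector means were 8.08 ± 0.14 (SD, n = 3) with GM-CSF and 9.34 ± 0.19 (SD, n = 3) without it. K89E minus empty vector, the lines differed by -0.35 on the log2 scale with GM-CSF withdrawn (SE 0.09, limma adjusted p = 0.025). With GM-CSF kept the difference was -0.30 and was not called (SE 0.09, limma adjusted p = 0.062).

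The largest fall was that of ENSG00000100336. Its log2 level was 8.85, 9.03 and 8.75 in the kept arrays and 7.45, 7.27 and 7.45 in the withdrawn arrays. Kept replicate 2 was the highest and withdrawn replicate 2 the lowest. More than 1 log2 unit parted the groups, which by the rule for named genes could not overlap. This was a fall of 2.80-fold, a change of -1.49 on the log2 scale (SE 0.08, limma adjusted p = 1.3e-07). Empty vector means were 8.70 ± 0.13 (SD, n = 3) with GM-CSF and 7.44 ± 0.09 (SD, n = 3) without it, a change of -1.26.

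ENSG00000165272 had the second largest fall and was likewise chosen after its values were seen. The kept arrays read 10.72, 10.69 and 10.65 and the withdrawn arrays 9.59, 9.59 and 9.45. The groups did not overlap, which the rule for named genes required. Withdrawal lowered it 2.21-fold, a change of -1.14 on the log2 scale (SE 0.05, limma adjusted p = 2.9e-08), and its change in empty vector cells was -1.44. It was higher in K89E than in empty vector cells under both conditions. On the log2 scale the lines differed by 0.25 with GM-CSF (SE 0.05, limma adjusted p = 0.0098) and by 0.54 without it (SE 0.05, limma adjusted p = 1.5e-05).

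**Figure D2:**
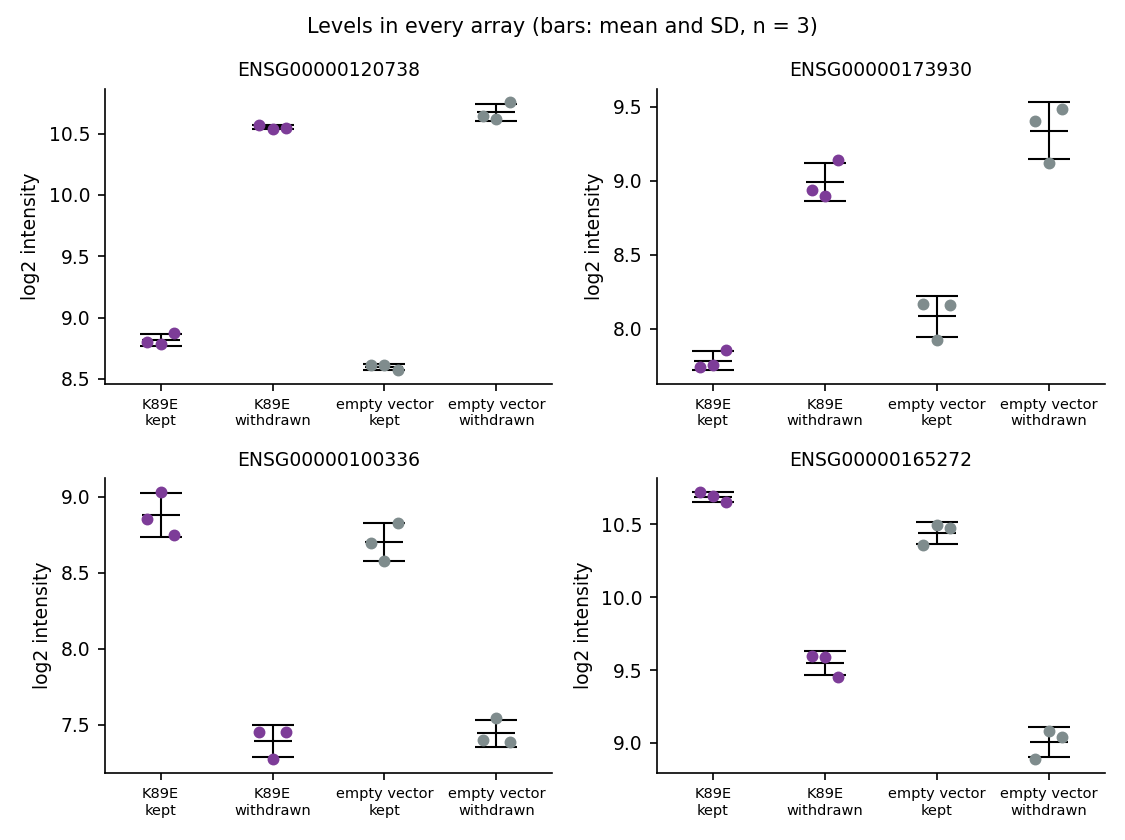
Each panel shows 1 Ensembl ID, with log2 intensity on the y axis and the 4 groups on the x axis; points are single arrays and bars the mean and SD of 3 arrays. In each panel the withdrawn K89E arrays lie apart from the kept K89E arrays, above them for ENSG00000120738 and ENSG00000173930 and below them for ENSG00000100336 and ENSG00000165272. Only genes whose K89E arrays did not overlap were eligible to be named. The y axes differ between panels and do not start at 0.

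Among all genes, the arrays of the K89E groups did not overlap for 31.8%. They did not overlap for 82 of the 83 genes called at least 1.5-fold higher and for the 38 genes called at least 1.5-fold lower. Over all called genes the share was 97.8%. The calls rest on the same arrays, so the lack of overlap adds no separate support. The median log2 change of the 83 and the 38 genes was 0.72 and -0.70. With GM-CSF present the 83 genes had log2 levels of 4.22 to 11.19 with a median of 8.07, and the 38 genes levels of 4.24 to 11.04 with a median of 8.74. Of the 121 genes, 113 were called in the same direction in all of 11 other fits, which used a prior variance without a trend, both other scalings, the replicate block, the K89E arrays alone, or left out 1 K89E array.

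The 1 gene of these sets with overlapping arrays was also the 1 gene of at least 2-fold change with no call in empty vector cells. Its kept arrays read 3.95, 5.16 and 3.84 and its withdrawn arrays 6.07, 5.51 and 4.65 on the log2 scale. Kept replicate 2 lay above withdrawn replicate 3. The gene is dim, with a mean level of 4.32 in the kept and 5.41 in the withdrawn arrays. Its log2 change of 1.09 (SE 0.33, limma adjusted p = 0.035) was not called without withdrawn replicate 1 or 2 or kept replicate 1 or 3 (adjusted p = 0.096 to 0.15), nor in the fit on the K89E arrays alone (0.10) or with a prior variance without a trend (0.069). The change in empty vector cells was -0.18, and the difference between the lines was not called (limma adjusted p = 0.79).

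The share of called genes rose with level. Genes were ordered by mean level and split into 4 bins of equal size. In the brightest bin 41.5% were called, and in the dimmest 3.00%, where the median SE of a change was 0.081 against 0.039 in the brightest. The direction also differed with level: 149 rose and 16 fell in the dimmest bin, 211 and 85 in the next, 535 and 659 in the third, and 708 and 1574 in the brightest. Each of the 6 K89E arrays moved the rises of the dimmest bin by over 1.5 times when left out: they numbered 80, 78 and 280 without withdrawn replicates 1, 2 and 3 and 86, 93 and 70 without kept replicates 1, 2 and 3, against 11 to 15 falls. In the next bin the rises numbered 116 without withdrawn replicate 2 and 122 without kept replicate 3. Rises outnumbered falls in both bins, and falls outnumbered rises in the brightest, in all 6 of these fits. The median log2 change of all genes in the bin went from 0.05 in the dimmest to -0.04 in the brightest. This gradient depended on the scaling. After quantile normalization 53 rose and 40 fell in the dimmest bin and 971 and 1175 in the brightest, with median changes of -0.0024 and -0.0096. The SD of log2 levels over all genes was 2.06 to 2.09 in the withdrawn and 2.10 to 2.11 in the kept K89E arrays, and quantile normalization makes these spreads equal. Centring on array medians, which leaves the spreads as they are, gave 110 and 21 in the dimmest and 579 and 1681 in the brightest bin. Array medians were 174.7 to 176.8 in intensity in the withdrawn and 173.1 to 174.3 in the kept group.

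**Figure D3:**
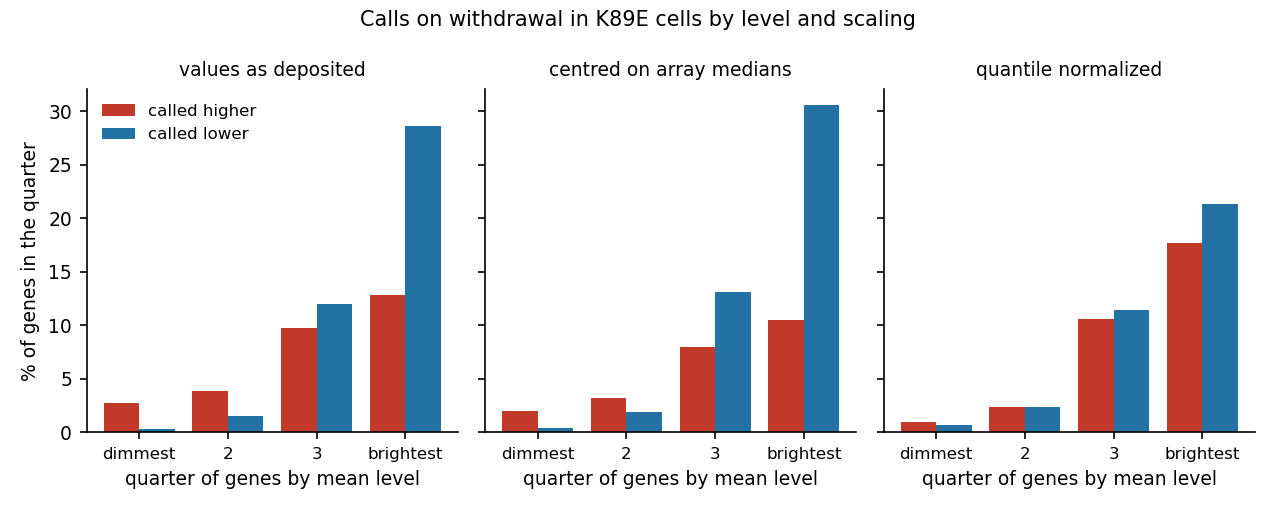
Bars give the percent of genes called higher (red) or lower (blue) on withdrawal in K89E cells, on a y axis from 0, for 4 equal bins of genes ordered by mean level on the x axis. Values as deposited and values centred on array medians show more falls than rises in the brightest bin and more rises than falls in the dimmest, while the bars of a bin are closer to equal after quantile normalization.

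Changes in K89E cells were set beside those in empty vector cells, which share no array with them. All arrays were fitted together with a shared estimate of each gene's spread, so the calls in the lines are not independent. In empty vector cells withdrawal was called for 20.4% of all genes, 8.73% higher and 11.7% lower. Of the 1603 genes that rose in K89E cells, 69.6% were called higher in empty vector cells too, and 95.6% had a positive change there. Of the 2334 that fell, 77.8% were called lower there, and 98.8% had a negative change. Over all genes the median log2 change in empty vector cells was 0.013, and the share of each sign was not counted. The SD of log2 levels was 2.07 to 2.10 in withdrawn and 2.11 in kept empty vector arrays. Whether a shift with level shared by the lines adds to these shares was not tested, and they were not recomputed under other scalings. Among the strong responders, 73 of the 83 genes called at least 1.5-fold higher and 35 of the 38 called at least 1.5-fold lower were called in the same direction in empty vector cells. The median log2 changes of these sets were 0.72 and -0.70 in K89E and 0.76 and -0.76 in empty vector cells. Because the sets were picked for their size in K89E cells, the medians of the lines are not a test of which response is larger.

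Calls made in K89E cells and not in empty vector cells numbered 482 rises and 517 falls. Their median log2 changes were 0.25 and -0.17 in K89E cells and 0.10 and -0.09 in empty vector cells. The sign was the same in 86.5% and 94.6%, and the share over all genes was not counted. The test of the difference between the responses was called for 0 genes of either set by limma, while 128 of the 482 and 92 of the 517 had an unadjusted p under 0.05, against 1234 of all 21996 genes. Both sets were picked for a call in one line and none in the other, which favours genes with a difference, so nothing is read from these shares. Over all genes the difference was called for 15, or 0.0682%. None of the 482 and 517 genes was thus shown to respond in K89E cells alone.

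The 6 genes called in opposite directions all rose in K89E cells, by a log2 change of 0.15 to 0.30, and fell in empty vector cells, by -0.34 to -0.17. The difference was called for 2 of them. In K89E cells the log2 changes of the 15 genes with a called difference ran from -0.78 to 1.74, the highest being that of ENSG00000120738. Of these 15 genes, 12 were called on withdrawal in K89E cells. Their changes in empty vector cells ran from -1.44 to 2.08. The absolute change was larger in K89E cells for 0 of the 15, and the median log2 change was -0.18 in K89E and -0.58 in empty vector cells. The difference for ENSG00000120738, K89E minus empty vector, was -0.34 (SE 0.06, limma adjusted p = 0.045), and it was not called in any fit that left out 1 array. The difference for ENSG00000165272 was 0.29 (SE 0.08, limma adjusted p = 0.43, 95% interval 0.13 to 0.46 before adjustment). For ENSG00000100336 it was -0.23 (limma adjusted p = 0.92, interval -0.48 to 0.02) and for ENSG00000173930 -0.05 (limma adjusted p = 0.996, interval -0.33 to 0.23).

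**Figure D4:**
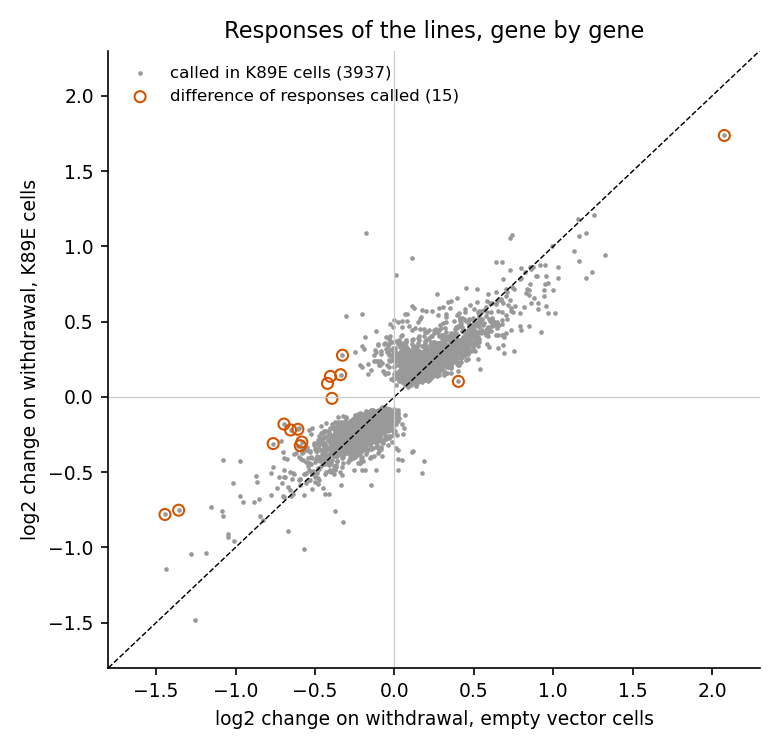
Each grey point is 1 of the 3937 genes called on withdrawal in K89E cells, with its log2 change in empty vector cells on the x axis and in K89E cells on the y axis; the dashed line marks equal changes, and orange circles mark the 15 genes for which the difference between the responses was called. Most points lie in the quadrants of equal sign, and the gap around 0 on the y axis arises because only genes called in K89E cells are drawn in grey.

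The arrays set a limit on small changes. The median 95% interval reached 0.145 log2 units to either side of a change, and the smallest called change was 0.066. Of the 18059 genes that were not called, 67.9% had an interval within 1.2-fold in both directions and 98.4% within 1.5-fold. For 285 genes that were not called, the interval reached a change of 1.5-fold.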

How the data were processed

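Total RNA of TF-1 cells was labelled as biotinylated cRNA by the Affymetrix protocol, per the labels. The authors deposited 1 intensity per gene and array, on a linear scale and already normalized between arrays. The submitters' processing notes name RMA. The sources used here do not state the array type, the probe set definitions or the genome build. Intensities ran from 9.31 to 17476, and the table holds 0 control rows and 0 identical arrays. The number of arrays limits the precision.

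Values were converted to log2 without a pseudocount. limma 3.58.1 in R 4.3.3 was run on the 12 arrays together with a mean for each group, letting the prior variance follow the level. Tests were 2-sided, and p-values were adjusted by Benjamini-Hochberg over all 21996 genes for each comparison. The procedure was also run on simulated data. The outcome is not given here, and no result rests on it. The simulated noise was independent between genes and arrays, with no array-wide shift. The simulation therefore does not bear on the gradient of calls with level. Alternatives were other prior variances, scalings, filters and weights, a replicate block, a pseudocount of 16, a test against a 1.2-fold change, the K89E arrays alone and leaving out each array.

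The groups compared, and the 43 gene lists fixed for them, were chosen with earlier results of these data known. The lists could not be used because the reference table, made from GRCh38.p14, has 59792 rows, of which 0 carry an Ensembl ID. For the same reason no sequence is shown. The rule for named genes took the first ID in each direction by size of change among called genes whose arrays did not overlap, and the second was added after its values were seen. The labels name no batch or scan date, and a batch that ran along with a group cannot be told apart from it.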

Additional observations from a re-analysis of the deposited data

Results flagged for a closer look

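The withdrawal response differed between K89E and empty vector cells for 15 genes by limma's test of the difference itself, at an adjusted p under 0.05. ENSG00000120738 is among them, with a log2 difference of -0.34 (K89E minus empty vector), and is listed here for that difference between the lines. It is made up of a called difference between the lines of 0.22 in the kept arrays and one of -0.12, not called, in the withdrawn arrays. Its difference lost its call in 16 of 21 other fits. Over the 21 fits the limma adjusted p ran from 0.026 to 1.0 and the difference from -0.37 to -0.30.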

How the results depend on the processing

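The count of 3937 calls for withdrawal in K89E cells was 3117 to 4120 under the planned fits that left out no single array. The test against a 1.2-fold change is given apart. With 1 K89E array left out the count was 2971 to 3580 (1134 to 1594 higher, 1831 to 2037 lower). With 1 empty vector array left out it was 3606 to 4132. Testing against 1.2-fold, a stricter demand that small changes cannot meet, left 148 genes, 104 higher and 44 lower. Of the calls made in each fit, 88.2% to 100% were shared with the reported ones in the same direction, and none was opposite. The replicate block gave 3838 calls. In the K89E arrays alone the block gave 3782, a fit added after the data were seen, against 3117 without it. Equal replicate numbers correlated at 0.0456 to 0.233 in their deviations from the group means, and unequal numbers at -0.210 to 0.112. These values do not show that the numbers pair the arrays, and pairing was not tested. The 15 called differences between the lines became 5 with a prior variance without a trend, 8 with the replicate block and 0 in the test against a 1.2-fold change (56 at an unadjusted p under 0.05). Leaving out single arrays gave 0 to 13. The 4 arrays whose loss left 0 were replicates 1 and 3 of the withdrawn K89E group and replicates 2 and 3 of the kept empty vector group, with 956 to 1484 genes at an unadjusted p under 0.05 in limma. Dropping kept K89E replicate 2 left 1 and kept K89E replicate 3 left 8. Dropping kept empty vector replicate 1 left 9, and the 3 withdrawn empty vector arrays left 6, 5 and 6. The cause was not tested. The difference of -0.05 for ENSG00000173930 was 0.076 with array weights and -0.16 to 0.032 with 1 array left out. The changes of the 4 named IDs in K89E cells kept direction and call in their 17 fits each. Medians of gene lists were not run, since no list could be matched. No paired design is stated in the labels.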
